A study of Mus musculus with 4 samples.

Results

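The proteasome is the protease that degrades ubiquitin-tagged proteins, and its subunit genes were followed in quadriceps muscle of mice with a mutation in titin. All genes on the array whose symbol is Psma, Psmb, Psmc, Psmd, Psme, Psmf or Psmg followed by a number alone were taken, which gave 43 genes among 16492 probe sets tested, each with 1 probe set. Expression was measured on Affymetrix arrays in 4 mice of the strain listed as B6C3Fe a/a-Ttnmdm/J, each on its own array. There were 2 mdm mutant mice, whose genotype is given as titin mutant and whose titles read Ttn+, and 2 wild type mice, given as titin wild type with titles that read Ttn-. By the descriptions, the plus sign marks mice that carry the mutation. The labels used here state no zygosity, age or sex. Titin is the giant spring protein of the sarcomere, and mdm is a spontaneous mutant allele known to cause a severe muscular dystrophy with myositis. The values were log2 RMA values, a scale on which a difference of 1 is a doubling. Each difference is the mdm mutant mean less the wild type mean on this scale, ± the standard error from limma, with n = 2 mice in either group. A gene passed the test at a Benjamini-Hochberg adjusted p under 0.05 over all 16492 probe sets.

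The titin probe set itself read 12.66 and 12.68 in mdm mutant mice and 12.58 and 12.65 in wild type mice. Where its probes lie with respect to the mutation is not known here, so it checks no label. Of 15 muscle fibre markers 14 were measured, and their mean level was 14.13 and 14.07 in mdm mutant mice and 14.07 and 14.12 in wild type mice. All arrays had been brought to a common distribution before deposit, so a change shared by most genes would not be visible. Several fibre markers lay at the top of that distribution, where values have little room to differ between arrays. Acta1 read 14.982 in every array, the highest value of the data, and Tnni2 read 14.755 in every array. Ckm and Mylpf only exchanged the values 14.806 and 14.847. The mean level of the fibre markers therefore cannot test whether fibre content was equal.

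The complete proteasome is a barrel, the 20S core, capped by the 19S regulator. The core is made of outer rings of alpha subunits (Psma genes) and inner rings of beta subunits (Psmb genes), a few of which hold the cutting sites. The regulator has a base, with a ring of ATPases (Psmc genes) that unfold substrates, and a lid of further Psmd subunits, which removes ubiquitin. Other caps (Psme genes) can replace the regulator, and in cells exposed to interferon the cutting subunits can be exchanged for those of the immunoproteasome. In muscle this machinery carries much of the protein breakdown of wasting.

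In mdm mutant muscle 5 of the 8 genes of the 19S lid rose. Of the base 1 of 9 genes rose, of the standard core 1 of 10, and of the immunoproteasome and thymus genes 0 of 4. The contrast of lid and base rests on the threshold. An unadjusted p under 0.05 was reached by 7 of 8 lid genes and 7 of 9 base genes (30.7% of all probe sets). A rise particular to the lid was thus not shown. In all, 9 of 43 genes passed (20.9%, beside 12.8% of all probe sets tested). Of these 7 rose and 2 fell, which is 16.3% and 4.65% of the members, beside 6.46% and 6.36% of all probe sets. Bright probe sets were called more often, and 41 of the 43 members lay in the brighter 50% of the table. When these brighter probe sets were fitted alone, 9 of 41 members passed (22.0%, beside 22.2% of all probe sets fitted). The share of members called thus did not stand above that of the brighter 50%. By direction, 17.1% of these members were higher and 4.88% lower, beside 10.2% and 11.9%. The 41 members were brighter still, with mean levels of 9.86 to 10.11 in the 4 mice, beside 8.64 for the brighter 50%. No comparison at equal brightness was made. The genes that rose were Psmd8, Psma7, Psmd11, Psmd7, Psmd3, Psmd13 and Psmc4, and those that fell were Psme1 and Psmd9. The sizes were modest: the largest difference was 1.57-fold, for Psmd8, and it was the only one over 1.5-fold. The median difference of the 43 genes was 0.18, against −0.02 over all probe sets. The difference was above 0 for 31 of the 43 genes (72.1%) and for 44.4% of all probe sets. In 26 genes both mdm mutant mice read higher than both wild type mice (60.5%, against 26.7% of all probe sets), and in 6 genes both read lower (14.0%, against 34.2%). Together these are 32 genes (74.4%), against 60.9% of all probe sets. An unadjusted p under 0.05 was reached by 25 of the 43 genes (58.1%), against 30.7% of all probe sets. Within the brighter 50% alone, the difference was above 0 for 75.6% of members and 46.3% of probe sets, mutant mice read higher without overlap for 63.4% and 31.7%, and an unadjusted p under 0.05 was reached by 61.0% and 45.8%. In bulk muscle such as this, fewer cells of a type and less RNA per cell cannot be told apart.

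**Figure D1:**
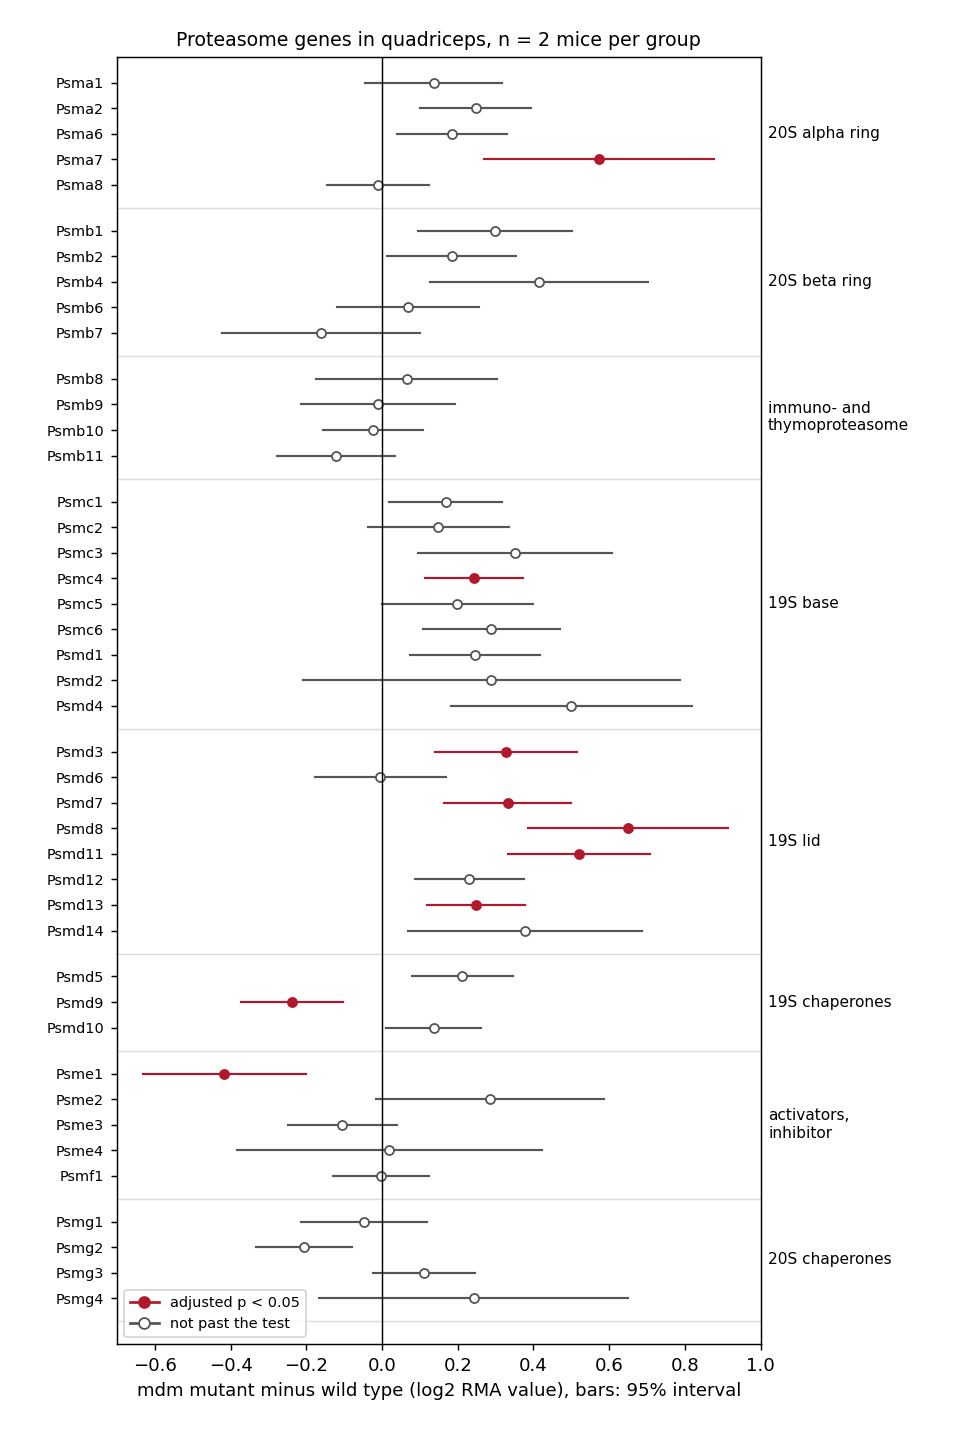
Log2 difference (mdm mutant minus wild type) of each of the 43 proteasome genes with its 95% interval from limma (n = 2 mice per group). Filled red points passed the test: 5 of the 7 rises lie in the 19S lid, and the 2 falls are Psmd9 and Psme1.

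None of the 9 calls held whichever mouse was left out, although all 9 kept their sign. Without mdm mutant 1, 7 genes rose (beside 3.86% of all probe sets), 4 of them among the 7 above. Leaving out mdm mutant 2 left 1 rise (2.1% of all), leaving out wild type 1 left 2 (1.84%), and leaving out wild type 2 left 0 (1.74%). In each of these fits 0 genes fell (beside 3.3%, 1.37%, 1.13% and 1.39% of all probe sets, in the order given). The arrays also carry 18 hybridization control probe sets, spiked RNAs of bacterial and phage origin. With each array centred on these, the median of all probe sets moved up by 0.11, and 22 of the 43 genes passed as higher (beside 17.2% of all probe sets) and 0 as lower (beside 3.66%). This scaling moves the difference of every probe set by the same amount. The members' median less that of all probe sets, 0.20, is therefore the same under both scalings by construction. At an adjusted p under 0.1, 17 genes were higher and 3 lower (10.9% and 11.6% of all probe sets), and at one under 0.01 both counts were 0 (1.11% and 0.734% of all).

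The lid was the class with the most calls: 5 of its 8 measured genes rose (62.5%) and 0 fell. Beside these stand 6.46% and 6.36% of all probe sets. The median difference of the lid was 0.33. Psmd8, a lid subunit that helps the finished lid join the base, read 11.64 and 11.75 in mdm mutant mice and 11.19 and 10.90 in wild type mice. Both mutant values lay above both wild type values, and the difference was 0.65 ± 0.10 (adjusted p = 0.0223 by limma). Psmd11, a lid scaffold that clamps core and regulator together, read 10.86 and 10.68 in mdm mutant mice and 10.23 and 10.27 in wild type mice. It rose by 0.52 ± 0.07 (1.43-fold, adjusted p = 0.0173 by limma), the smallest adjusted p among the 43 genes. It passed in 2 of the 4 fits with a mouse left out, more than any other member, and lost its call when either wild type mouse was removed (adjusted p up to 0.0826).

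Psmd7, the inactive partner of the lid's deubiquitinase, read 10.46 and 10.61 in mdm mutant mice and 10.19 and 10.21 in wild type mice, a difference of 0.33 ± 0.07. Psmd3, another scaffold subunit of the lid, read 9.998 and 10.18 in mdm mutant mice and 9.78 and 9.75 in wild type mice, a difference of 0.33 ± 0.07. Psmd13, a further scaffold subunit, read 9.71 and 9.76 in mdm mutant mice and 9.49 and 9.47 in wild type mice, a difference of 0.25 ± 0.05. In these 3 genes the mutant values also lay above the wild type values, with adjusted p of 0.0359, 0.0478 and 0.0392 by limma. The deubiquitinase itself, Psmd14, differed by 0.38 ± 0.12 and did not pass (adjusted p = 0.107). It read 11.19 and 11.24 in mdm mutant mice and 11.02 and 10.65 in wild type mice, so the wild type mice were far apart. Psmd12 stood at 0.23 ± 0.06 (adjusted p = 0.0577). Psmd6 alone of the lid genes showed overlapping groups, with 11.61 and 11.64 in mdm mutant mice and 11.70 and 11.55 in wild type mice, a 95% interval of −0.18 to 0.17 for its difference.

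**Figure D2:**
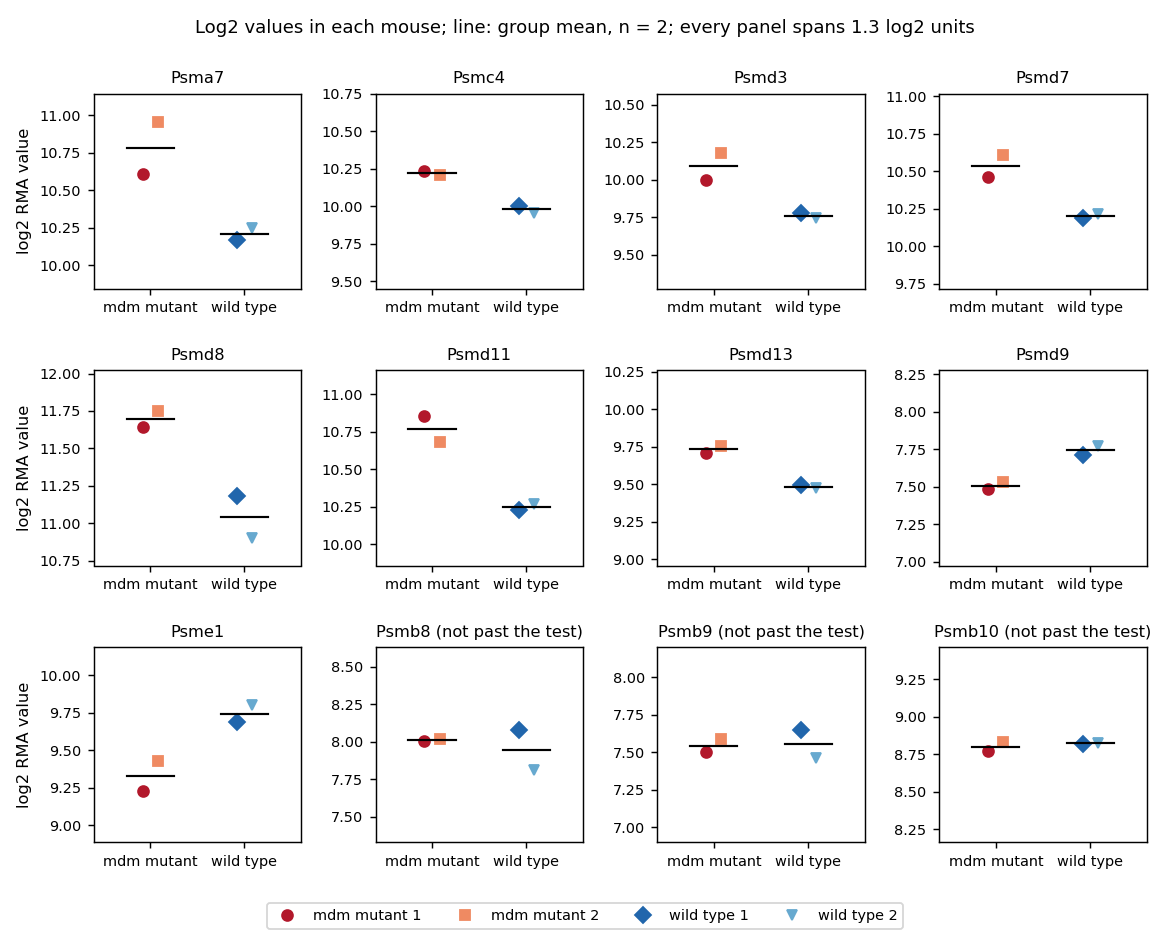
Log2 values in each mouse of the 9 proteasome genes that passed the test and of the 3 immunoproteasome subunits, with group means (n = 2); every panel spans the same number of log2 units. Mutant and wild type points are apart in the first 9 panels, and overlap for Psmb8, Psmb9 and Psmb10.

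All 9 base genes had a difference above 0 (44.4% of all probe sets), with a median of 0.25. Only 1 passed the test (11.1%, beside 12.8% of all probe sets). That gene was the ATPase Psmc4, which read 10.24 and 10.21 in mdm mutant mice and 10.001 and 9.96 in wild type mice. Its rise of 0.24 ± 0.05 (adjusted p = 0.0400 by limma) was small, and mice of the same group lay close together. The 6 ATPase genes Psmc1 to Psmc6 differed by 0.15 to 0.35. In all 6 the mutant mice read above the wild type mice, as in 26.7% of all probe sets. The largest base difference belonged to Psmd4, a ubiquitin receptor, which read 10.65 and 11.03 in mdm mutant mice and 10.36 and 10.33 in wild type mice. At 0.50 ± 0.13 it missed the threshold (adjusted p = 0.0610), and it passed without mdm mutant 1 (adjusted p = 0.0212). Psmd2, a base scaffold that docks ubiquitin shuttles, read 9.78 and 10.39 in mdm mutant mice and 9.72 and 9.87 in wild type mice. The mutant mice thus differed more from each other than the groups did. The other large scaffold, Psmd1, differed by 0.25 ± 0.07 (adjusted p = 0.0752).

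In the standard 20S core, 1 of 10 measured genes passed, beside 12.8% of all probe sets. Psma7, a subunit of the alpha ring, read 10.60 and 10.96 in mdm mutant mice and 10.16 and 10.25 in wild type mice, a rise of 0.57 ± 0.12 (1.49-fold, adjusted p = 0.0400 by limma). The other alpha genes Psma1, Psma2 and Psma6 differed by 0.14 ± 0.07, 0.25 ± 0.06 and 0.18 ± 0.06, with adjusted p of 0.265, 0.0530 and 0.0966. In these genes both mutant mice read above both wild type mice, as in 26.7% of all probe sets. Psma8, an alpha subunit of the testis proteasome, was below the median level of all probe sets and overlapped between groups (−0.01 ± 0.05). Of the beta ring, the structural subunits Psmb1, Psmb2 and Psmb4 differed by 0.30 ± 0.08, 0.18 ± 0.07 and 0.42 ± 0.11, with adjusted p from 0.0716 to 0.139. The catalytic subunits Psmb6 and Psmb7 did not pass. Psmb6 read 11.82 and 12.00 in mdm mutant mice and 11.83 and 11.86 in wild type mice. Psmb7 read 9.86 and 10.15 in mdm mutant mice and 10.17 and 10.16 in wild type mice, a difference of −0.16 ± 0.10 (adjusted p = 0.359). The gene table lists pseudogenes of Psmb6 and Psmb7, and how far the probe sets tell these from the genes is not known here. Psma3, Psma4, Psma5, Psmb3 and the catalytic subunit Psmb5 are not analysed here.

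The immunoproteasome genes showed no difference beyond the spread between mice. Psmb8 read 8.005 and 8.02 in mdm mutant mice and 8.08 and 7.81 in wild type mice, with a difference of 0.07 ± 0.09 (95% interval −0.17 to 0.30). Psmb9 read 7.501 and 7.59 in mdm mutant mice and 7.65 and 7.46 in wild type mice, with a difference of −0.01 ± 0.08 (95% interval −0.21 to 0.19). Psmb10 read 8.77 and 8.83 in mdm mutant mice and 8.82 and 8.83 in wild type mice, with a difference of −0.02 ± 0.05 (95% interval −0.15 to 0.11). The groups overlapped in all 3 genes, and a change within these intervals was not detectable with this number of mice. Psmb11, the cutting subunit of the thymus proteasome, was below the median level of all probe sets and stood at −0.12 ± 0.06 (adjusted p = 0.252). The 4 genes had a median of −0.02, which turned to 0.10 when arrays were centred on the hybridization controls.

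Immunoproteasome subunits take the place of standard ones, so the pairs were also compared within each array. The log2 value of Psmb10 minus that of Psmb7 was −1.09 and −1.33 in mdm mutant mice and −1.35 and −1.34 in wild type mice, a change of 0.14. For Psmb9 minus Psmb6 it was −4.32 and −4.42 in mdm mutant mice and −4.18 and −4.40 in wild type mice, a change of −0.08. Two-sided exact permutation tests over the 4 arrays gave p = 0.333 and p = 0.667, and 0.333 is the smallest value that this number of mice allows. The values themselves compare different probe sets and have no meaning as ratios of abundance. Single mice set these changes: that of Psmb10 minus Psmb7 was 0.018 with mdm mutant 1 left out and 0.26 with mdm mutant 2 left out, and that of Psmb9 minus Psmb6 was 0.029 without wild type 1 and −0.19 without wild type 2. The third pair, Psmb8 and Psmb5, could not be formed.

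Leukocytes are rich in immunoproteasome, and their marker genes were mostly higher in mdm mutant muscle. Of 25 leukocyte markers 22 were measured, and 14 rose, 0 fell and 8 did not pass, with a median difference of 0.60. The 14 are 63.6% of the markers, beside 6.46% of all probe sets. Their mean level was 8.57 and 8.88 in mdm mutant mice and 7.99 and 7.91 in wild type mice. The pan-leukocyte phosphatase Ptprc read 8.29 and 8.57 in mdm mutant mice and 7.56 and 7.47 in wild type mice, and the cathepsin Ctss of phagocytes read 10.60 and 11.26 in mdm mutant mice and 9.20 and 9.13 in wild type mice. Both rose, by 0.92 ± 0.10 and 1.76 ± 0.21 (adjusted p = 0.0109 and 0.0115 by limma). With 1 mouse left out, between 1 (without wild type 1) and 16 (without mdm mutant 1) of the markers rose. The T cell gene Cd3e did not pass and differed by −0.16 ± 0.05. The part of these cells in any proteasome difference was not tested. Psmb8 and Psmb9 lie beside the peptide transporter genes Tap1 and Tap2 on mouse chromosome 17, and Tap1 read 7.53 and 7.57 in mdm mutant mice and 7.70 and 7.57 in wild type mice. Among 17 measured genes of class I peptide supply and the interferon-gamma pathway, 0 rose and 2 fell, with a median of 0.01, and these 11.8% are close to the 12.8% of all probe sets. Those that fell were Jak2, the kinase of the interferon-gamma receptor (−0.59 ± 0.07, adjusted p = 0.0111 by limma), and the receptor chain Ifngr2 (−0.36 ± 0.07, adjusted p = 0.0351). The regulator Irf1 stood at 0.01 ± 0.09, the transporter Tap2 at 0.14 ± 0.06 and the class I light chain B2m at −0.17 ± 0.09, and none of these passed.

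**Figure D3:**
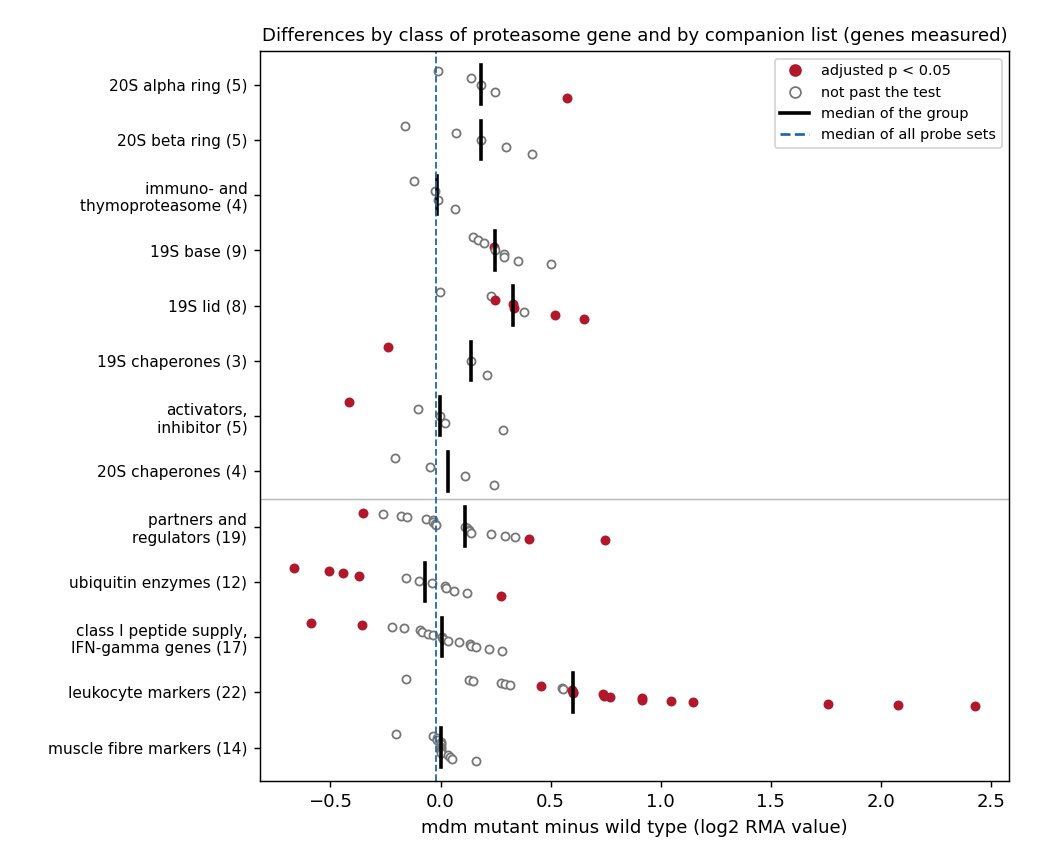
Log2 differences (mdm mutant minus wild type) of every measured gene in the 8 classes of proteasome gene (above the line) and in 5 companion lists (below it); black bars are medians and the dashed line is the median of all probe sets, −0.02. The lid and base medians lie at 0.33 and 0.25, the immunoproteasome median at −0.02 (0.10 with arrays centred on the hybridization controls) and the leukocyte median at 0.60.

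Among the alternative caps and the inhibitor Psmf1, 5 genes, 1 fell (20%) and 0 rose, beside 6.36% and 6.46% of all probe sets. Their median was near 0 (0.11 with arrays centred on the hybridization controls). Psme1, the alpha subunit of the interferon-inducible activator, read 9.23 and 9.43 in mdm mutant mice and 9.69 and 9.80 in wild type mice. It fell by 0.42 ± 0.09 on the log2 scale (1.33-fold, adjusted p = 0.0383 by limma), the largest fall among the 43 genes, and did not pass with arrays centred on the hybridization controls. Its partner in the same ring, Psme2, read 9.15 and 9.30 in mdm mutant mice and 9.10 and 8.78 in wild type mice, a difference of 0.28 ± 0.12 (adjusted p = 0.183). The within-array value of Psme2 minus Psme1, a pair chosen after the values were seen, was −0.08 and −0.13 in mdm mutant mice and −0.58 and −1.03 in wild type mice. Its change of 0.70 had p = 0.333 in the exact permutation test. The genes are near neighbours on chromosome 14, with 1 protein-coding gene, Emc9, between them. The gene table also holds a close copy, Psme2b, so the Psme2 value is uncertain to that extent. The nuclear activator Psme3 differed by −0.10 ± 0.06 and the activator Psme4 by 0.02 ± 0.16. For Psme4 the mice of each group lay far apart, at 10.58 and 10.86 in mdm mutant mice and 10.90 and 10.49 in wild type mice. The inhibitor Psmf1 stood at 0.00 within its error (95% interval −0.13 to 0.12).

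The assembly chaperones, which build the complexes and leave them, differed in sign. Psmd9, a chaperone of the base, read 7.48 and 7.53 in mdm mutant mice and 7.71 and 7.77 in wild type mice. It fell by 0.24 ± 0.05 on the log2 scale (adjusted p = 0.0476 by limma), with no overlap, and also did not pass with arrays centred on the hybridization controls. The other base chaperones, Psmd5 and Psmd10, differed by 0.21 ± 0.05 and 0.14 ± 0.05 (adjusted p = 0.0592 and 0.137). Among the core chaperones, Psmg1 and Psmg2, which act as a pair, differed by −0.05 ± 0.07 and −0.21 ± 0.05, and the pair Psmg3 and Psmg4 by 0.11 ± 0.05 and 0.24 ± 0.16. None of these 4 passed. Psmg4 read 8.59 and 8.30 in mdm mutant mice and 8.41 and 7.99 in wild type mice, and its difference was 0.45 without wild type 1 and 0.035 without wild type 2. Psmg2 came closest (adjusted p = 0.0564), with 9.05 and 9.04 in mdm mutant mice and 9.27 and 9.23 in wild type mice.

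The 43 genes lie on 15 chromosomes, so what they share was sought in their promoters. RefSeq start sites on GRCm38.p6 were available for 35 of them. The sequences shown are the 250 bases before the start site of the 3 genes with the largest rises and of the 2 genes that fell, 5′ to 3′ on the gene's strand. Capitals mark letters of the searched motifs on either strand.
Psmd8 (chr7:29180674-29180923, minus strand): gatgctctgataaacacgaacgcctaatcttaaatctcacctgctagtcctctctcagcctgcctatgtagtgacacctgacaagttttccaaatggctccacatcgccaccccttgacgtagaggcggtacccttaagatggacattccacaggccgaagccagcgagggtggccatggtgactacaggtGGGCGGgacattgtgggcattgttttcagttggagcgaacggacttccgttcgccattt
Psma7 (chr2:180042465-180042714, minus strand): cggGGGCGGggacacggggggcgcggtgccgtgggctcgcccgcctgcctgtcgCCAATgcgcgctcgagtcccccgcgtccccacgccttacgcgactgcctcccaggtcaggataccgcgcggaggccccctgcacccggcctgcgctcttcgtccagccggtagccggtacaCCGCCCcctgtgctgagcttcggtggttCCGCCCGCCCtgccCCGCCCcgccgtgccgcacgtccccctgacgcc
Psmd11 (chr11:80428365-80428614, plus strand): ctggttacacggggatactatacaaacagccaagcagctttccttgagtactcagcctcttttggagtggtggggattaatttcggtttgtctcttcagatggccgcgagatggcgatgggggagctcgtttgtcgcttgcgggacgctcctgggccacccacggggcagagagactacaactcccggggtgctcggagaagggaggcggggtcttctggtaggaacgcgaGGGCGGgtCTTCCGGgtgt
Psmd9 (chr5:123227940-123228189, plus strand): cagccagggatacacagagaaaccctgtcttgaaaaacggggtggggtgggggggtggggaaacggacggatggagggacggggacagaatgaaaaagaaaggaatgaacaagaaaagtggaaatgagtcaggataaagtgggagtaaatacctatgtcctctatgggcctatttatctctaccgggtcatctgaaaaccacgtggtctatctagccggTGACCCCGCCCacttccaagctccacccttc
Psme1 (chr14:55578244-55578493, plus strand): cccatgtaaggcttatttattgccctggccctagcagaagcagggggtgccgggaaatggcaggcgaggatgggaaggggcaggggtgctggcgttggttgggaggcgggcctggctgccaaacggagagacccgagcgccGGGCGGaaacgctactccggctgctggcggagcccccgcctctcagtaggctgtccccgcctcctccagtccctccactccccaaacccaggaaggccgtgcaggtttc
The motif TGACNNNGC, the core of the antioxidant response element bound by Nfe2l1 and Nfe2l2, was in 4 of the 35 promoters (11.4%) and in 11.5% of the 27025 genes with a promoter sequence. Those 4 were Psmb6, Psmc6, Psmd12 and Psmd9, so it was in 0 of the 5 promoters available for genes that rose. CCGGAAG, a core letter string of ETS factor sites, was in 12 of 35 (34.3%) against 7.83% of all genes, and among the genes that rose in Psmd11. GGGCGG, the GC box, was in 21 of 35 (60.0%) against 35.4%, including 4 of the 5 genes that rose and both that fell. In Psmd9 its letters overlap those of TGACNNNGC. CCAAT was in 12 of 35 (34.3%) against 37.5%, the interferon-gamma motif TTCNNNGAA in 2 of 35 (5.71%) against 8.13%, and TATAAA in 4 of 35 (11.4%) against 14.3%. The members' windows were richer in G and C than those of all genes, with a median of 57.6% against 52.4%, and 14 against 6 CpG pairs. These are matches of letters within the window, not bound sites.

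Beyond the subunits, 3 of 19 measured partners and regulators of the proteasome passed, 2 higher and 1 lower, with a median of 0.11. That is 15.8% of the list, near the 12.8% of all probe sets. Nfe2l1, the transcription factor known to raise proteasome genes when the proteasome is overloaded, read 11.19 and 10.98 in mdm mutant mice and 10.34 and 10.33 in wild type mice. It rose by 0.75 ± 0.08 (1.68-fold, adjusted p = 0.00945 by limma), with no overlap, a larger difference than that of any of the 43 members. It passed with either mdm mutant mouse left out and missed when either wild type mouse was removed (adjusted p up to 0.0523). Its relative Nfe2l2 differed by 0.34 ± 0.12 (adjusted p = 0.125). Nploc4, which helps the Vcp segregase deliver substrates, rose by 0.40 ± 0.09 (adjusted p = 0.0428), and Ecpas, an adaptor that binds the assembled proteasome, fell by 0.35 ± 0.08 on the log2 scale (adjusted p = 0.0440). Nploc4 and Ecpas passed in 0 of the 4 fits with a mouse left out. The core maturation factor Pomp stood at 0.11 ± 0.06 and Akirin2, which carries proteasomes into the nucleus, at 0.29 ± 0.08 (adjusted p = 0.284 and 0.0664).

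Among the enzymes that activate and attach ubiquitin, more genes fell than rose. Of 12 genes measured, 1 rose (8.33%) and 4 fell (33.3%), beside 6.46% and 6.36% of all probe sets. The other 7 did not pass. The median was −0.07, and 0.04 when arrays were centred on the hybridization controls. The 4 that fell were ubiquitin-conjugating enzymes. Ube2n read 7.62 and 7.56 in mdm mutant mice and 8.31 and 8.20 in wild type mice, a difference of −0.67 ± 0.06 (adjusted p = 0.00771 by limma), and it passed with any 1 mouse left out. Ube2b, Ube2d1 and Ube2g1 differed by −0.51 ± 0.06, −0.44 ± 0.09 and −0.37 ± 0.05 (adjusted p = 0.0126, 0.0409 and 0.0179). The chain-elongating ligase Ube4b rose by 0.27 ± 0.06 (adjusted p = 0.0391). With 1 mouse left out, 0 of the 12 genes rose and 1 or 2 fell.

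**Figure D4:**
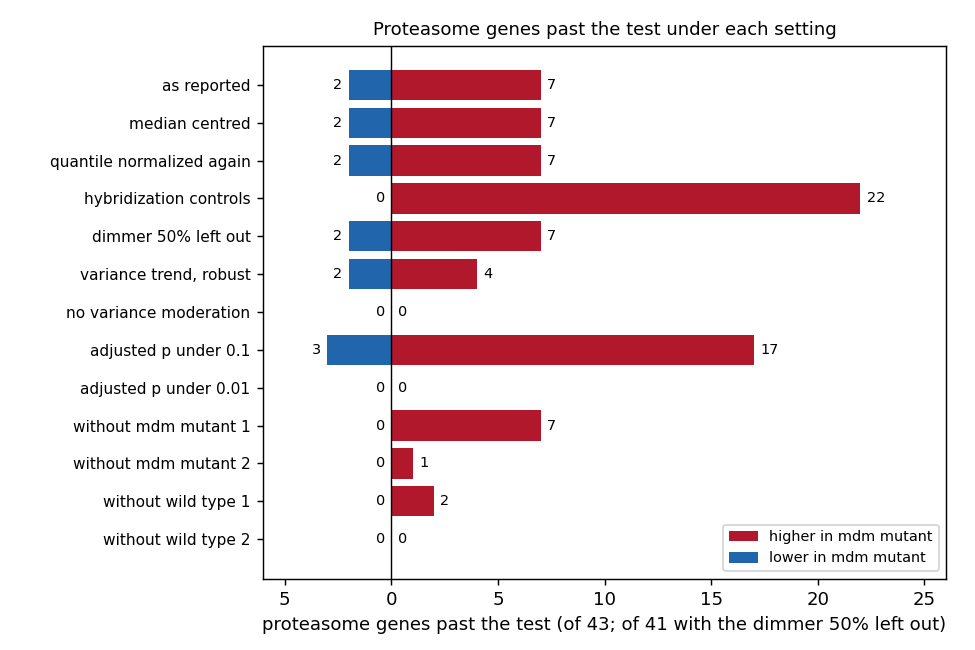
Number of the 43 proteasome genes past the test as higher (right) or lower (left) in mdm mutant muscle under each setting, by limma. The count as reported is 7 and 2, it is 22 and 0 with arrays centred on the hybridization controls, and it lies between 0 and 7 higher with 1 mouse left out.

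The mdm mutant mice were not equal in these genes. Mdm mutant 2 read above mdm mutant 1 in 31 of the 43 genes (72.1%), against 49.3% of all probe sets, and in 20 of the 22 leukocyte markers. In the lid and base the same held for 14 of 17 genes. Relative to the wild type mean of each gene, the median of the 17 lid and base genes was 0.22 in mdm mutant 1 and 0.31 in mdm mutant 2, and 0.02 and −0.02 in the wild type mice. The 2 wild type values mirror each other because these mice set the mean, and are no test of separation. Gene by gene, both mdm mutant mice lay above both wild type mice in 15 of the 17 (88.2%, against 26.7% of all probe sets). The leukocyte markers had the same order of mice, at 0.48 and 0.75 in mdm mutant mice and 0.05 and −0.05 in wild type mice. What part leukocytes had in this was not tested.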

How the data were processed

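RNA of quadriceps from 2 mdm mutant and 2 wild type mice was hybridised to Affymetrix arrays as biotin-labelled cRNA, per the labels' protocols. Per the submitters' processing notes, the authors used RMA, of unstated version, for the deposited log2 values. The array model and the definition of its probe sets are not known here. Of 16553 rows, 61 array controls were left out. Symbols came from the platform annotation (15270 of 16492 probe sets named) and, by Entrez identifier, from RefSeq's GRCm38.p6 table where newer. The fit was limma 3.58.1 in R 4.3.3 (lmFit, eBayes, no covariates), with Benjamini-Hochberg adjustment over 16492 probe sets. It was also run on simulated data with known changes, and the share recovered is not given here. Groups came from the genotype label. Nothing says more of the mice than their numbers, so p-values refer to the spread between these samples. For the limma p-values that spread was pooled in part across all probe sets. Within-array pairs were tested by exact permutation, listing every split of the arrays in Python. Figures used matplotlib 3.10.9 in Python 3.11.15. Alternatives were other scalings, variance models, thresholds, a filter on dim probe sets and each mouse left out. The members, lists, motifs and tests were chosen with earlier results of these data known. All 43 members could be named, and companion genes if they passed or had a defining role. Intervals are 95%. The number of arrays limits the precision, and there were no detection calls.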

Additional observations from a re-analysis of the deposited data

How the results depend on the processing

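The 9 calls rest on 2 mice per group and a spread pooled by limma across probe sets. All 9 kept their sign under every alternative. Counts of members higher and lower were 7 and 2 with arrays median centred, quantile normalized again or averaged per gene. They were also 7 and 2 with the dimmer 50% of probe sets removed, but all probe sets then stood at 10.2% higher and 11.9% lower, against 6.46% and 6.36% as reported. They were 4 and 2 with a trended, robust variance, where 3 of the 7 and both falls stayed (7.18% and 6.98% of all probe sets). Without moderation they were 0 and 0, where the whole table had 1 call and 3286 probe sets at an unadjusted p under 0.05.

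With arrays centred on the hybridization controls, 22 members were higher and 0 lower. Of all calls 82.4% were then higher, against 50.4% as reported. Of 19 partners 9 were higher and 0 lower, and of 12 ubiquitin enzymes 2 were higher and 3 lower. Of 17 class I genes 0 were higher and 1 lower. Among all probe sets 17.2% were higher and 3.66% lower. Medians then were 0.30 for all members, 0.30 for the alpha ring, 0.30 for the beta ring, 0.095 for the immunoproteasome, 0.36 for the base, 0.44 for the lid, 0.25 for the base chaperones, 0.11 for activators and 0.14 for the core chaperones. They were 0.22 for partners, 0.042 for ubiquitin enzymes, 0.12 for class I genes and 0.11 for fibre markers. Signs turned for Psma8 (0.10), Psmb9 (0.10), Psmb10 (0.089), Psmd6 (0.11), Psme3 (0.0072), Psmf1 (0.11), Psmg1 (0.065) and Tap1 (0.027). A shift of all probe sets by 0.11 is part of that scaling.

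At an adjusted p under 0.01, counts were 0 and 0 for members, 1 and 0 for partners, 0 and 1 for ubiquitin enzymes, 0 lower for class I genes and 2 higher for leukocyte markers. At one under 0.1, 17 members and 4 partners were higher. Without moderation every list had 0 calls in both directions. Removing the dimmer 50% put the median of ubiquitin enzymes at −0.10.

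With 1 mouse left out, 0 to 7 members were higher and 0 lower, 0 to 1 partners higher and 0 lower, 0 ubiquitin enzymes higher and 1 to 2 lower, 0 to 1 class I genes higher and 0 to 1 lower, and 1 to 16 leukocyte markers higher. Medians then spanned 0.25 to 0.40 for the lid, −0.038 to 0.049 for the core chaperones, −0.099 to −0.0056 for activators, 0.11 to 0.20 for the beta ring, −0.068 to 0.061 for class I genes and −0.085 to 0.029 for the immunoproteasome. They spanned 0.053 to 0.097 for partners, −0.015 to 0.0069 for fibre markers and −0.089 to −0.056 for ubiquitin enzymes. Differences changed sign within −0.094 to 0.10 for Irf1, −0.043 to 0.021 for Psma8, −0.053 to 0.0067 for Psmb10, −0.023 to 0.16 for Psmb6, −0.067 to 0.20 for Psmb8, −0.11 to 0.085 for Psmb9, −0.015 to 0.59 for Psmd2, −0.081 to 0.072 for Psmd6, −0.18 to 0.22 for Psme4, −0.020 to 0.014 for Psmf1 and −0.11 to 0.017 for Psmg1. The change of Psmb10 minus Psmb7 ran from 0.018 to 0.26 and that of Psmb9 minus Psmb6 from −0.19 to 0.029. The difference of Psmg4 ran from 0.035 to 0.45. The cause of these moves was not tested.

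No paired analysis was possible because the replicate numbers 1 and 2 only follow the order of deposition and tie no mutant mouse to a wild type mouse. The change of pseudocount was not run, since the values are already log2.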

Other observations

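Genes named for a partner of a subunit were outside the symbol rule. Psme3ip1, which binds Psme3, read 9.25 and 9.39 in mdm mutant mice and 9.06 and 9.01 in wild type mice, a difference of 0.29 ± 0.07 that missed the threshold (adjusted p = 0.0530 by limma). Psmc3ip, a meiotic recombination factor, differed by 0.04 ± 0.05 (adjusted p = 0.683 by limma).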
